A study of Mus musculus with 32 samples.

Results

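The 8 genes described here write, maintain or remove methylation of cytosine in DNA: Dnmt1, Dnmt3a, Dnmt3b, Uhrf1, Tet1, Tet2, Tet3 and Tdg. They were taken by gene name from the 45706 genes of a table of RNA sequencing reads per gene, and each name matched 1 row. In mammals DNA methylation sits mainly on cytosines that precede a guanine. Dnmt3a and Dnmt3b place it on unmethylated DNA, while Dnmt1 copies it onto the new strand after replication, guided by Uhrf1, which binds DNA methylated on a single strand. The Tet enzymes oxidise the methyl group, and the glycosylase Tdg cuts out the oxidised base, which base excision repair then replaces. The microRNA family miR-29 is known from other cells to repress the Dnmt3 genes, and this is the reason to read the genes against a miR-29a mimic.

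The cells were BV-2, an immortalised mouse line that stands in for microglia, which are the macrophages that live in the brain, and the labels give a wild type genotype. They were transfected with a mimic, a synthetic double-stranded RNA that supplies a mature microRNA, for miR-29a-3p, for miR-7a-5p or for miR-146a-5p, or with a scramble control. Over 24 h they were kept in vehicle or in lipopolysaccharide (LPS) at 10 ng/ml, a molecule of the bacterial outer membrane to which microglia respond with inflammation. Each of the 8 groups had 4 libraries. The vehicle groups are called VEH_scramble, VEH_miR-29a, VEH_miR-7a and VEH_miR-146a here, and their counterparts with LPS are called LPS_scramble, LPS_miR-29a, LPS_miR-7a and LPS_miR-146a. All cells were transfected, so no group shows untransfected cells, and the scramble control carries whatever transfection itself does. The labels place LPS before transfection and the study's methods place it after. The labels also carry a tag with ages of mice, which has no meaning for a cell line. All libraries come from 1 line, and the study's methods call the replicates independent experiments.

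The labels name the cell type glioblastoma. Of 11 markers of microglia and macrophages 9 were above 0 in every library, and their summed level ranged from 1712 to 4203 CPM (counts scaled to a library of 1e6 counts). All 5 markers of astrocytes and glioma (Gfap, Aqp4, Slc1a2, Olig2, Sox2) averaged under 1 CPM, with a summed level of 0 to 2.47 CPM. Levels were unequal among the markers of microglia and macrophages. Cd68, Ptprc, Fcgr3 and Tyrobp averaged 1037, 453, 416.5 and 414 CPM. P2ry12, Tmem119 and Cx3cr1 averaged 5.6, 3.01 and 0.831 CPM, and Csf1r ran from 0.298 to 607 CPM. The data thus hold part of the markers of microglia and macrophages, and those of the labelled tumour only near 0. Library totals, in units of 1e6 counts, ran from 1.13 in replicate 4 of VEH_miR-7a, where 3 counts equal 2.65 CPM, to 20.2 in replicate 4 of LPS_scramble, where 3 counts equal 0.149 CPM. Small structural RNA genes held 33.7% to 37.5% of the counts in replicates 2 to 4 of VEH_miR-7a, 4.2% in its replicate 1, and 2.64% to 17.8% in the other libraries.

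The mimics act through pairing of bases 2 to 8, the seed, with the 3′ untranslated region (3′ UTR) of a transcript, so the 3 mature sequences are shown with the seed in capitals, 5′ to 3′, from RefSeq (GRCm38.p6). No 2 of them share a seed.
miR-29a-3p, chr6:31062673-31062694, minus strand: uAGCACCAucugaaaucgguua
miR-7a-5p, chr7:78888295-78888317, plus strand: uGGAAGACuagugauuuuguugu
miR-146a-5p, chr11:43374435-43374456, minus strand: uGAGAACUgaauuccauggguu

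Seed matches were counted on the transcript strand in the longest annotated 3′ UTR of each gene (GENCODE, GRCm38). For miR-29a the match was TGGTGCTA (8mer), TGGTGCT (7mer-m8) or GGTGCTA (7mer-A1). For miR-7a it was GTCTTCCA, GTCTTCC or TCTTCCA, and for miR-146a AGTTCTCA, AGTTCTC or GTTCTCA, in the same order. Each place was counted once, as the longest match. A match is a run of letters and not a measured binding site.

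The miR-29a match was frequent among the 8 genes. Tet3 held 10 matches in a 3′ UTR of 5669 bases, Tet1 8 in 7962 bases, Dnmt3a 6 in 6696 bases, Tet2 5 in 3058 bases, Tdg 3 in 2079 bases and Dnmt3b 2 in 1331 bases. Dnmt1 and Uhrf1, whose 3′ UTRs have 312 and 984 bases, held 0. Among genes with a 3′ UTR within 20% of the same length, as many matches were found in 0 of 445 for Tet3, 0 of 167 for Tet1, 1 of 285 for Dnmt3a, 0 of 1338 for Tet2, 8 of 1679 for Tdg and 34 of 1628 for Dnmt3b. Of 10951 genes tested for miR-29a under LPS that have an annotated 3′ UTR, 19.2% held at least 1 match. The matches of the other mimics were fewer. For miR-7a, Dnmt3a and Dnmt3b held 2 each, and Uhrf1 and Tet1 held 1 each. For miR-146a, Tet1 held 3, and Tet3, Tdg and Uhrf1 held 1 each.

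The windows below show the miR-29a 8mers of the genes measured above the low-value filter, and the 7mer-m8 match of Dnmt3b, which had no 8mer, with the match in capitals and the coordinates of the match in GRCm38. Each window lies in the 3′ UTR of its gene.
Dnmt3a, chr12:3911405-3911412, plus strand: ccaggggaggtagcTGGTGCTAgcac
Dnmt3a, chr12:3911474-3911481, plus strand: gcggggtcccaagcTGGTGCTAattc
Tet3, chr6:83364336-83364343, minus strand: aatagtctaataaaTGGTGCTAtggt
Tet3, chr6:83363777-83363784, minus strand: aggccgcttttagtTGGTGCTAaact
Tet2, chr3:133466173-133466180, minus strand: gtgttaacattaaaTGGTGCTAcaaa
Tet2, chr3:133465116-133465123, minus strand: aattcacatcacgaTGGTGCTAccca
Tdg, chr10:82649677-82649684, plus strand: tcatgcattttccaTGGTGCTAcaga
Dnmt3b, chr2:153686627-153686633, plus strand: agagtagcccggcaTGGTGCTcatg

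Beside them stand a miR-7a match of Dnmt3b and the miR-146a match of Uhrf1, since these genes were lower with the respective mimic under LPS.
Dnmt3b, miR-7a match, chr2:153686966-153686972, plus strand: tgtttatggtttaaGTCTTCCtggc
Uhrf1, miR-146a match, chr17:56322813-56322819, plus strand: gtcatgctggtaggAGTTCTCccca

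**Figure D1:**
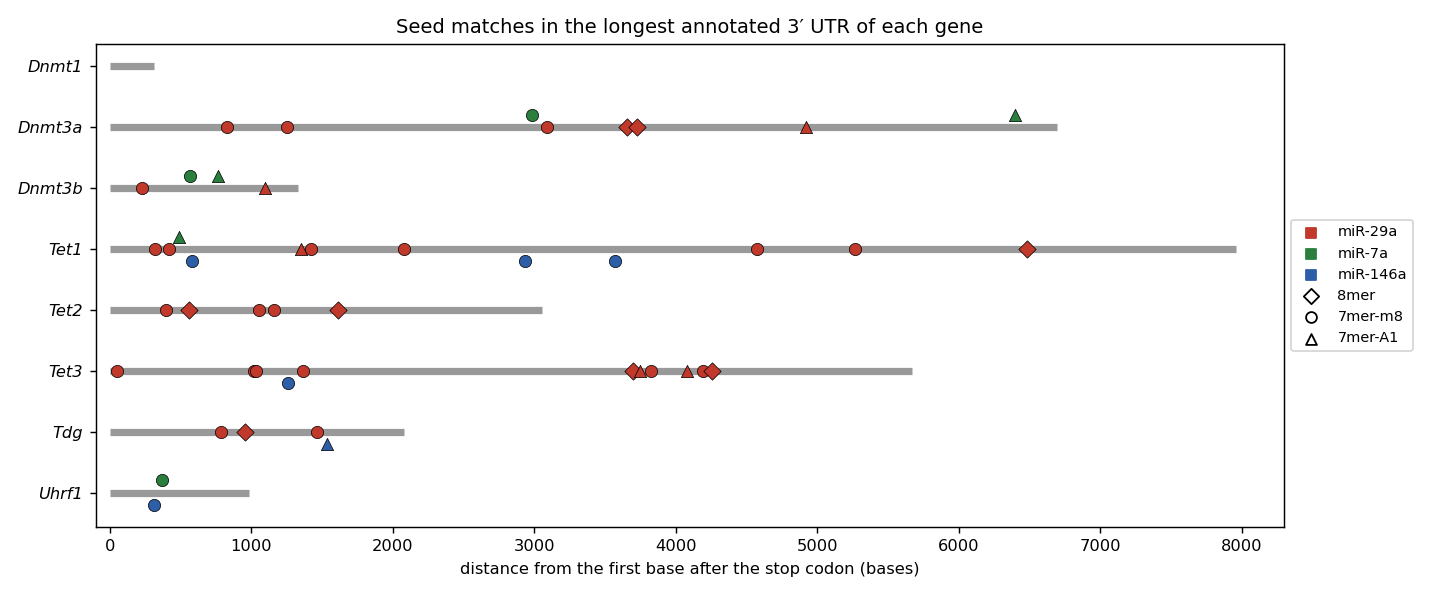
Positions of seed matches of the 3 mimics along the longest annotated 3′ UTR of each of the 8 genes, in bases from the stop codon. Tet3, Tet1, Dnmt3a and Tet2 carry 10, 8, 6 and 5 miR-29a matches, while Dnmt1 and Uhrf1 carry 0.

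BV-2 cells expressed 7 of the 8 genes in every library. Per kilobase of exon, which allows genes to be compared, Dnmt1 was highest with a median over the 32 libraries of 25.3 CPM per kb. Dnmt3a followed with 20.6, Uhrf1 with 17.4 and Tet2 with 14.6 CPM per kb. Tdg had 7.58, Tet3 4.93 and Dnmt3b 2.34 CPM per kb, so the transcript level of Dnmt3b lay far below that of the other de novo writer, Dnmt3a. The order of the first 4 is that of medians over all groups and was not the same in each group. By group means, Dnmt3a lay above Dnmt1 in VEH_scramble (22.5 and 20.1 CPM per kb), VEH_miR-7a (22.5 and 22.3) and VEH_miR-146a (27.1 and 16.8), Tet2 above Uhrf1 in VEH_scramble, VEH_miR-146a and LPS_miR-146a, and Uhrf1 above Dnmt3a in VEH_miR-29a, LPS_scramble, LPS_miR-7a and LPS_miR-29a. Tet1 was at 0 in 21 of the 32 libraries, its highest count was 7 and its highest level 1.08 CPM, which is under the 2.65 CPM that 3 counts make in the shallowest library. It passed the filter on low values in 0 of the 14 comparisons, which leaves 7 genes tested, and its level could not be compared at this depth.

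The genes lie at these places in GRCm38. Dnmt1 (ENSMUSG00000004099) spans chr9:20907209-20959888 on the minus strand, and Uhrf1 (ENSMUSG00000001228) chr17:56303321-56323486 on the plus strand. Dnmt3a (ENSMUSG00000020661) spans chr12:3806007-3914443 and Dnmt3b (ENSMUSG00000027478) chr2:153649450-153687730, both on the plus strand. Tet1 (ENSMUSG00000047146) spans chr10:62804570-62908996, Tet2 (ENSMUSG00000040943) chr3:133463679-133545139 and Tet3 (ENSMUSG00000034832) chr6:83362373-83459084, all on the minus strand, and Tdg (ENSMUSG00000034674) chr10:82629828-82650799 on the plus strand. Exons of the antisense gene Dnmt3aos overlap those of Dnmt3a and reached at most 5.19 CPM, Gm42567 overlaps Tet2 and reached 2.57 CPM, and Glt8d2 overlaps Tdg and reached 0.205 CPM. The strand setting of the counting is not given in the sources used here, so reads of these pairs may be mixed. The pseudogene Dnmt3a-ps1 reached at most 0.17 CPM, and the pseudogene Tdg-ps was not analysed here.

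**Figure D2:**
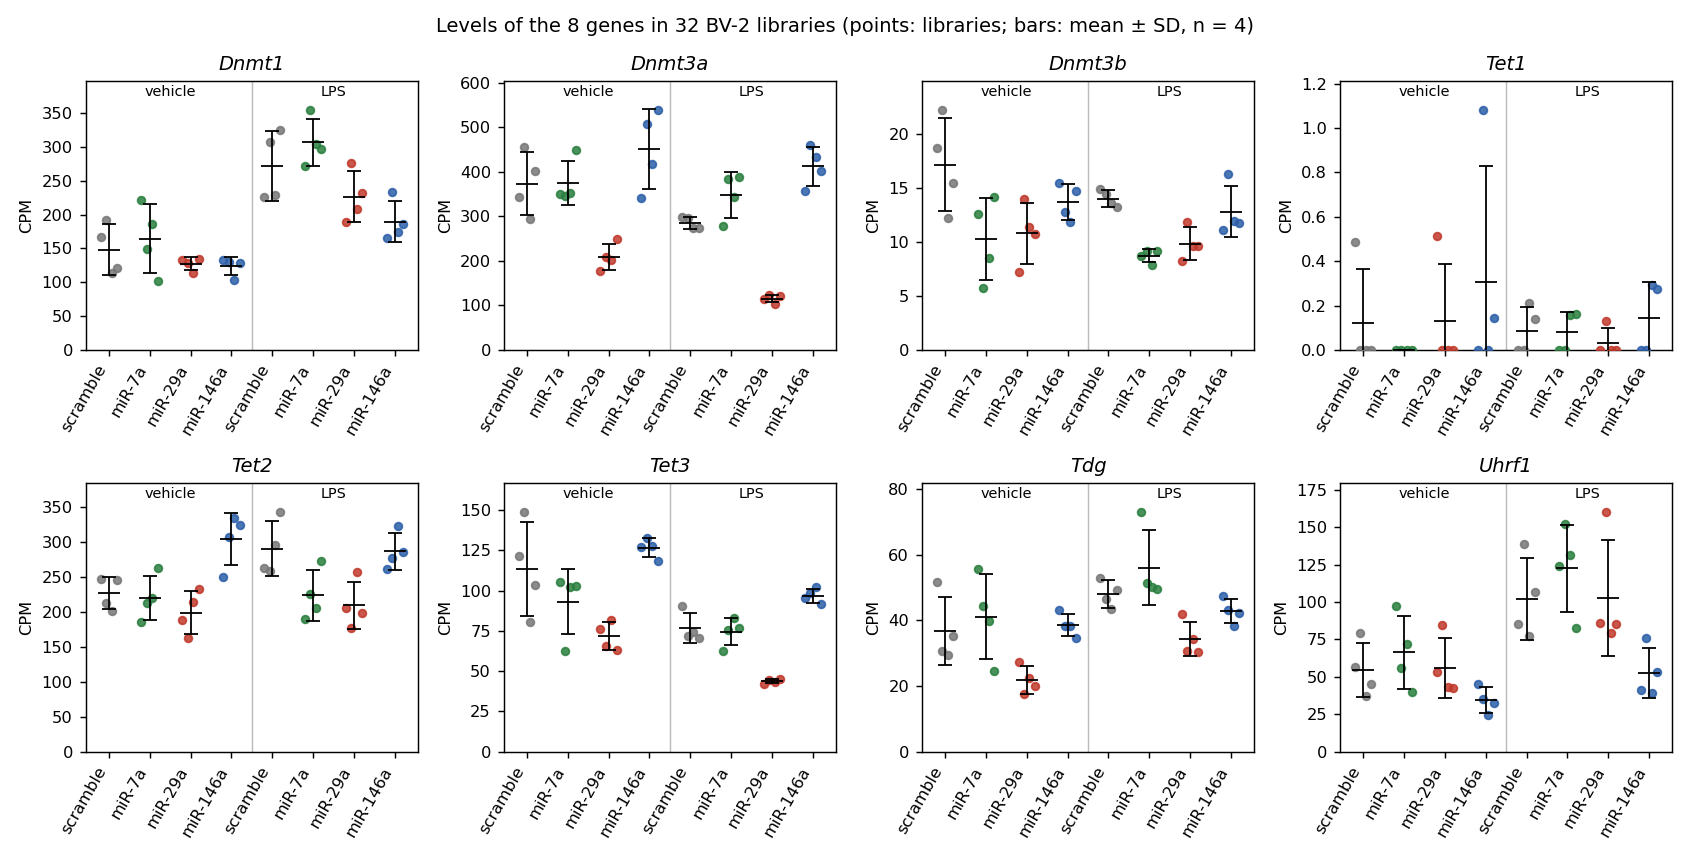
Level in CPM of each of the 8 genes in every library, by group, with the mean and SD of the 4 libraries of a group. Dnmt3a is lowest in the LPS_miR-29a libraries (104 to 123 CPM), Dnmt1 and Uhrf1 have their highest means in LPS_miR-7a, and Tet1 is at or near 0 throughout.

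The comparisons were read with 1 rule: a gene was called changed at an adjusted p under 0.05 with a log2 fold change beyond 0.3 in either direction, in a limma voom fit over all genes tested. With the miR-29a mimic under LPS, Dnmt3a and Tet3 fell, 2 of the 7 genes tested, where 2.66% of all genes tested were called lower and 4.77% in either direction. The miR-146a mimic under LPS raised Dnmt3a and lowered Uhrf1, 2 of 7, beside 0.823% of all genes called higher, 1.49% called lower and 2.31% in either direction. With miR-7a under LPS 1 of 7 changed, Dnmt3b, which was lower, beside 1.15% of all genes called lower and 2.84% in either direction. LPS itself, in scramble cells, raised Dnmt1 and Uhrf1, 2 of 7, where 9.62% of all genes were called higher and 18% in either direction.

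The shares of all genes under LPS moved with single libraries. Without replicate 4 of LPS_scramble the 627 genes called with miR-29a became 163, the 289 with miR-146a became 32 and the 367 with miR-7a became 75. They also fell by more than 1.5 times without replicate 1 or 3 of LPS_scramble, with miR-29a (391) and miR-146a (178) without its replicate 2, and without replicate 1 or 3 of LPS_miR-29a (329 and 245), replicate 1 or 3 of LPS_miR-146a (82 and 36) and replicate 2 or 3 of LPS_miR-7a (135 and 115). Transcripts of the mitochondrial genome held 3.53%, 1.7%, 3.91% and 3.54% of the counts in replicates 1 to 4 of LPS_miR-29a and 2.47%, 0.97%, 2.53% and 2.28% in those of LPS_scramble, higher with miR-29a at each number while the ranges overlapped. Their part in the results was not tested.

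Under vehicle none of the mimics gave a call against scramble by limma voom or by limma-trend, which leaves 0 of 7 genes called for each. With the replicate number as a block, which pairs libraries of the same number, miR-29a called 2 (Dnmt3a and Tdg), beside 0.77% of all genes. In 1 fit over all 8 groups miR-29a called 2 (Dnmt3a and Tet3) beside 0.662% of all genes, and miR-146a called 1 (Tet2) beside 11.6%. At an unadjusted p under 0.05, 4 of the 7 genes passed with miR-29a, 2 with miR-146a and 0 with miR-7a, and of all genes 10.4%, 25.3% and 12.3% did, so the 2 of 7 with miR-146a lay near the share of all genes. By the call rule, 0.0173% of all genes were called with miR-29a, 0.0545% with miR-7a and 2.38% with miR-146a. The shares for miR-146a and miR-7a moved with single libraries. The 277 genes called with miR-146a under vehicle became 0 without replicate 3 of VEH_miR-146a, 1223 without replicate 1 of VEH_scramble and 15 to 91 without any other library, and the 6 called with miR-7a became 243 without replicate 1 of VEH_miR-7a, 45 without replicate 1 of VEH_scramble and 1 to 4 without any other. Since the 3 mimics of a condition are compared with the same 4 scramble libraries, these comparisons are not independent of each other, and miR-29a was therefore also compared directly with the other mimics.

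Of those direct comparisons, miR-29a against miR-146a called 4 of 7 genes under vehicle, all lower with miR-29a (Dnmt3a, Tet3, Tdg, Tet2), beside 1.96% of all genes called lower and 3.33% in either direction. Under LPS it called 3 of 7, with Dnmt3a and Tet3 lower and Uhrf1 higher, but 12% of all genes were called in that comparison, 6.61% lower and 5.39% higher. Against miR-7a, Dnmt3a and Tdg were lower with miR-29a under vehicle, 2 of 7 beside 0.657% of all genes called lower and 1.41% in either direction. Under LPS Dnmt3a, Tet3 and Tdg were lower, 3 of 7 beside 2.44% called lower and 3.84% in either direction. The shares of all genes under vehicle moved with single libraries here too. For miR-29a against miR-146a the 3.33% of 11763 genes became 35 genes without replicate 3 of VEH_miR-29a, 68 to 96 without its replicate 2 or replicate 1, 2 or 3 of VEH_miR-146a, and 243 to 352 without any other. For miR-29a against miR-7a the 155 genes called became 6 to 18 without replicate 2 or 3 of VEH_miR-7a or replicate 3 or 4 of VEH_miR-29a, 358 and 244 without replicate 1 of VEH_miR-7a and of VEH_miR-29a, and 96 and 129 without the other two libraries.

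Over the 7 genes tested, the median log2 fold change with miR-29a was -0.48 under LPS and -0.63 under vehicle, where the median of all genes tested was 0.0012 and 0.0022. With miR-146a under LPS the median of the 7 genes was -0.11, with values from -1.01 to 0.53. With miR-7a under LPS it was 0.19, with values from -0.67 to 0.27. Under vehicle the medians were 0.06 with miR-146a and 0.03 with miR-7a.

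**Figure D3:**
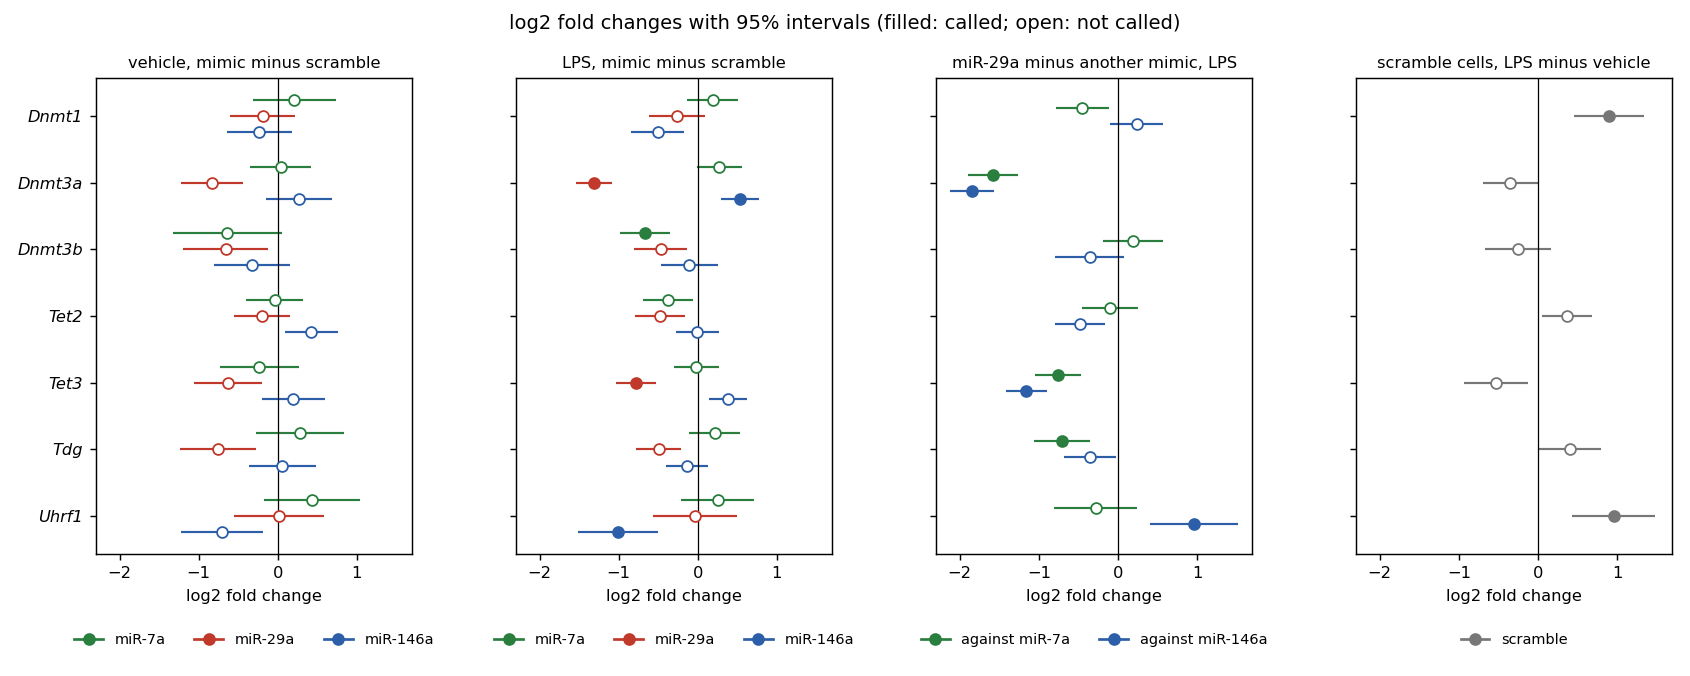
Log2 fold change of the 7 tested genes with its 95% interval, for each mimic against scramble under vehicle and under LPS, for miR-29a against the other mimics under LPS, and for LPS against vehicle in scramble cells. Filled points passed the call rule, such as Dnmt3a at -1.31 and Tet3 at -0.78 with miR-29a under LPS.

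Dnmt1, the maintenance methyltransferase, was higher in every LPS_scramble library than in any VEH_scramble library. It had 167, 192, 114 and 121 CPM in replicates 1 to 4 of VEH_scramble, and 226, 308, 229 and 325 CPM in those of LPS_scramble. The means were 148 ± 37.4 and 272 ± 51.8 CPM (SD, n = 4), and the log2 fold change was 0.90 (SE 0.20, 95% interval 0.46 to 1.34, adjusted p = 0.0104). This call held with each library left out, with adjusted p from 0.00543 to 0.0433. The 4 LPS groups had the 4 highest means of Dnmt1 and the 4 vehicle groups the 4 lowest, although each group overlapped with its neighbour in that order.

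No mimic passed the rule for Dnmt1 against scramble. Under LPS it had 307 ± 35 CPM in LPS_miR-7a, 227 ± 37.7 in LPS_miR-29a and 189.7 ± 29.9 in LPS_miR-146a (SD, n = 4), with log2 fold changes against scramble of 0.19 (adjusted p = 0.568), -0.26 (adjusted p = 0.388) and -0.51 (adjusted p = 0.113). Its levels with miR-146a under LPS were 166, 233, 174 and 186 CPM in replicates 1 to 4, of which only replicate 2 lay within the scramble range. With the replicate number as a block, which pairs libraries of the same number, the miR-146a difference passed (adjusted p = 0.0076). Under vehicle Dnmt1 stood at 165 ± 51.1, 127 ± 9.72 and 124 ± 13.8 CPM with miR-7a, miR-29a and miR-146a, and its log2 fold changes were 0.21 (adjusted p = 0.754), -0.19 (adjusted p = 0.759) and -0.23 (adjusted p = 0.46). Compared with miR-7a, miR-29a gave -0.40 (adjusted p = 0.289) under vehicle and -0.45 (adjusted p = 0.137) under LPS, and compared with miR-146a 0.05 (adjusted p = 0.842) and 0.24 (adjusted p = 0.353).

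Uhrf1, which brings Dnmt1 to newly replicated DNA, rose with LPS and fell with miR-146a under LPS. In VEH_scramble it had 56.4, 79.5, 37.5 and 45 CPM in replicates 1 to 4, and in LPS_scramble 85.2, 139, 77.3 and 107 CPM. The groups overlapped in 1 pair of libraries, the highest under vehicle and the lowest under LPS. The log2 fold change was 0.96 (SE 0.24, 95% interval 0.43 to 1.48, adjusted p = 0.0178), and it ranged from 0.79 to 1.13 with 1 library left out. The call was lost without replicate 3 or 4 of VEH_scramble or replicate 2 or 4 of LPS_scramble, with adjusted p of up to 0.0624.

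In LPS_miR-146a Uhrf1 had 41.3, 75.8, 39.1 and 53.5 CPM, each below all LPS_scramble libraries. The means were 52.4 ± 16.8 and 102 ± 27.5 CPM (SD, n = 4), and the log2 fold change was -1.01 (SE 0.23, 95% interval -1.51 to -0.50, adjusted p = 0.0481). It ended as a call in limma-trend (adjusted p = 0.0602), and it was lost without any 1 library except replicate 3 of LPS_scramble or replicate 2 of LPS_miR-146a, with adjusted p of up to 0.154. Under vehicle the difference had the same sign, -0.70 (adjusted p = 0.103), with 45.3, 35.4, 24.4 and 32.2 CPM in VEH_miR-146a, 1 library of which lay inside the scramble range. Neither miR-7a nor miR-29a moved Uhrf1 past the rule, with log2 fold changes under LPS of 0.25 (adjusted p = 0.595) and -0.03 (adjusted p = 0.957), and under vehicle of 0.43 (adjusted p = 0.556) and 0.01 (adjusted p = 0.99). Against miR-146a under LPS, Uhrf1 was higher with miR-29a by 0.96 (SE 0.26, 95% interval 0.41 to 1.52, adjusted p = 0.0296), where replicate 2 of LPS_miR-29a stood at 160.5 CPM against 79 to 85.7 CPM in the other 3. That call was lost without replicate 1 of LPS_miR-29a or replicate 1, 3 or 4 of LPS_miR-146a, with adjusted p of up to 0.105. The other direct comparisons of Uhrf1 gave -0.44 (adjusted p = 0.423) and -0.28 (adjusted p = 0.595) against miR-7a under vehicle and LPS, and 0.71 (adjusted p = 0.0997) against miR-146a under vehicle.

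Genes of DNA synthesis moved beside Uhrf1 in both comparisons and beside Dnmt1 with LPS. The list held 19 S-phase genes, which build or start the replication fork or supply nucleotides. With LPS in scramble cells 11 of them rose and 0 fell, where 9.62% of all genes were called higher. Those that rose included Mcm7, a subunit of the replicative helicase, by 0.90 (adjusted p = 0.00294), the primase subunit Prim1 by 1.02 (adjusted p = 0.00297) and the helicase component Cdc45 by 1.18 (adjusted p = 0.00485). With miR-146a under LPS 15 of the 19 fell and 0 rose, beside 1.49% of all genes called lower. Those that fell included the helicase subunits Mcm6 at -1.27 (adjusted p = 0.00364) and Mcm4 at -0.99 (adjusted p = 0.00866). The median log2 fold change of the list was 0.71 with LPS and -0.99 with miR-146a under LPS. With miR-29a under LPS 1 rose, the cyclin gene Ccne1 by 0.77 (adjusted p = 0.0268), beside 4.77% of all genes called in either direction. In miR-29a against miR-146a under LPS 17 were higher, beside 5.39% of all genes called higher. Under vehicle miR-146a lowered 2 of the 19, Mcm6 at -0.88 (adjusted p = 0.0292) and Mcm5 at -0.96 (adjusted p = 0.0393), beside 2.38% of all genes called in either direction. Both calls were lost without replicate 3 of VEH_miR-146a, where 0 of all genes were called. The median of the list was -0.66 there with all libraries. Its summed level was 495 to 708 CPM in VEH_miR-146a and 739 to 1044 CPM in VEH_scramble.

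The summed level of the 19 genes was 879 ± 141 CPM in VEH_scramble and 1339 ± 219.5 CPM in LPS_scramble (SD, n = 4). It was 1638 ± 322 CPM in LPS_miR-7a, 1406 ± 209 CPM in LPS_miR-29a and 685 ± 109 CPM in LPS_miR-146a, and no LPS_miR-146a library (586 to 832 CPM) reached the LPS_scramble range (1120 to 1587 CPM). Their part in the values of Dnmt1 and Uhrf1 was not tested, and in bulk RNA fewer cells in S phase and less RNA per cell cannot be told apart. The genes whose log2 levels followed Uhrf1 most closely over the 32 libraries, among 11743 genes, were the helicase subunit Mcm3 (Pearson r = 0.962), the DNA polymerase subunit Pole (r = 0.955) and Rangap1 (r = 0.951), as a description across libraries that share groups and conditions.

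**Figure D4:**
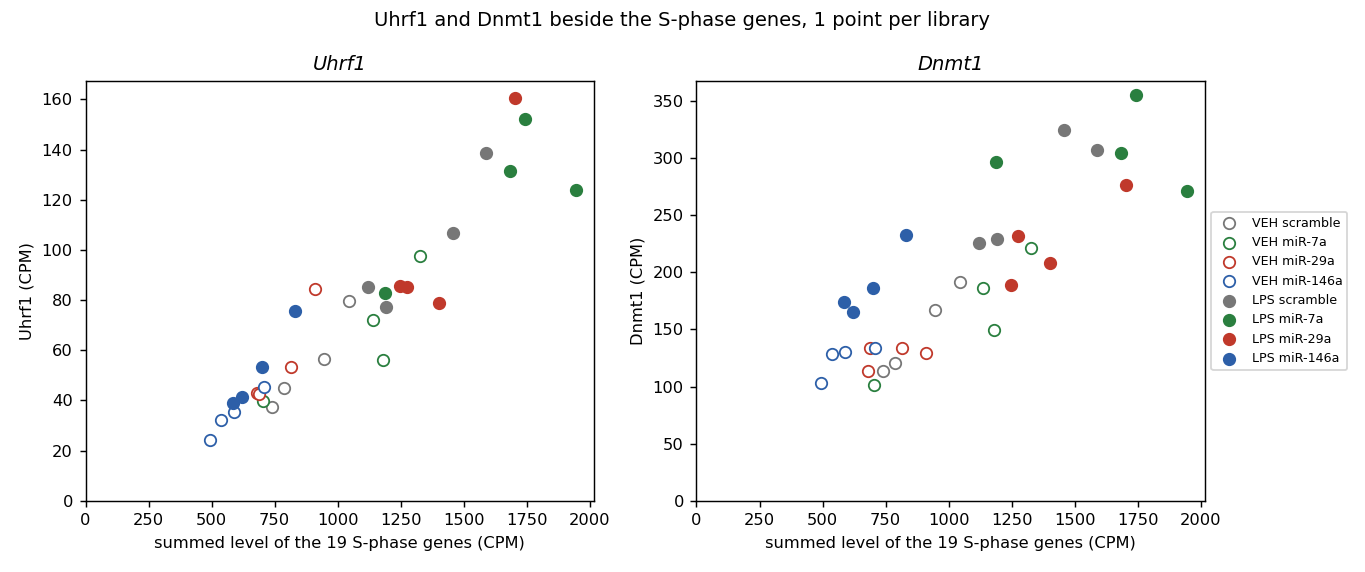
Level of Uhrf1 and of Dnmt1 in CPM against the summed level of 19 S-phase genes in CPM, 1 point per library for all 32 libraries. The LPS_miR-146a libraries sit at 586 to 832 CPM of S-phase genes and 39.1 to 75.8 CPM of Uhrf1, and the LPS_scramble libraries at 1120 to 1587 and 77.3 to 139 CPM.

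Dnmt3a, the more abundant de novo methyltransferase, had its lowest levels in the 2 miR-29a groups. In LPS_scramble it had 298, 297, 273 and 275 CPM in replicates 1 to 4, and in LPS_miR-29a 113, 123, 104 and 121 CPM. All LPS_miR-29a libraries lay below all others of the series, the next lowest of which had 178 CPM. The means were 286 ± 13.6 and 116 ± 8.67 CPM (SD, n = 4), 0.402 times the scramble level in the fit, with a log2 fold change of -1.31 (SE 0.11, 95% interval -1.55 to -1.08, adjusted p = 0.000332). The call held with each library left out, with adjusted p from 0.000447 to 0.00238.

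Under vehicle the levels also separated. Dnmt3a had 343, 456, 295 and 402 CPM in VEH_scramble and 178, 209, 202 and 248 CPM in VEH_miR-29a, so every miR-29a library lay below every scramble library. The log2 fold change of -0.83 (SE 0.18, 95% interval -1.22 to -0.45, adjusted p = 0.143) missed the rule, and it passed with the replicate number as a block (adjusted p = 0.0297). Compared directly, Dnmt3a was lower with miR-29a than with miR-7a under vehicle, with a log2 difference of -0.82 (SE 0.14, 95% interval -1.13 to -0.51, adjusted p = 0.0247), and lower than with miR-146a, with -1.11 (SE 0.16, 95% interval -1.45 to -0.76, adjusted p = 0.0077). The first of these was lost without replicate 2 or 3 of VEH_miR-7a or replicate 3 of VEH_miR-29a, with adjusted p of up to 0.0966, and the second held without any 1 library. Under LPS the difference was -1.58 (SE 0.15, 95% interval -1.90 to -1.26, adjusted p = 0.000263) from miR-7a and -1.85 (SE 0.13, 95% interval -2.12 to -1.57, adjusted p = 1.43e-05) from miR-146a, and both held without any 1 library.

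The miR-29a effect on Dnmt3a under LPS minus that under vehicle was -0.50 on the log2 scale (unadjusted p = 0.0199, adjusted p = 0.664), which does not show that the effect differed between conditions.

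With miR-146a under LPS Dnmt3a went the other way. It had 357, 459.5, 434 and 402 CPM in replicates 1 to 4, all above the 4 scramble libraries, and a log2 fold change of 0.53 (SE 0.11, 95% interval 0.29 to 0.77, adjusted p = 0.0323). The call was lost without any 1 library except replicate 1 or 4 of LPS_miR-146a, with adjusted p of up to 0.126 and values from 0.48 to 0.60. The 3′ UTR of Dnmt3a held 0 matches of miR-146a. Under vehicle miR-146a gave 0.27 (adjusted p = 0.402), with 341 to 539.5 CPM overlapping with scramble. With miR-7a Dnmt3a had 349 ± 51.2 CPM under LPS and 375 ± 50.2 CPM under vehicle, with log2 fold changes of 0.27 (adjusted p = 0.307) and 0.03 (adjusted p = 0.956). LPS in scramble cells gave -0.35 (adjusted p = 0.144).

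In the order of the 8 group means, VEH_miR-146a stood first with 451 ± 90.2 CPM, and the neighbours overlapped down to LPS_scramble at the sixth place. The 2 miR-29a groups came last, and each of them lay wholly below the group before it. The 3 genes closest to Dnmt3a over the 32 libraries were Zfp568 (Pearson r = 0.932), E330009J07Rik (r = 0.9) and Trim63 (r = 0.889) among 11743 genes.

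Dnmt3b, the less abundant de novo methyltransferase, fell with miR-7a under LPS. It had 14.9, 14.5, 13.6 and 13.2 CPM in LPS_scramble and 8.67, 9.13, 7.91 and 9.22 CPM in LPS_miR-7a, and the groups did not overlap. The log2 fold change was -0.67 (SE 0.14, 95% interval -0.98 to -0.36, adjusted p = 0.0338). The call was lost without a filter on low values (adjusted p = 0.0914) and without any 1 library except replicate 1 of LPS_miR-7a, with adjusted p of up to 0.118, while the value stayed between -0.71 and -0.61. With a stricter minimum of 0.99 for the restored values the gene left the test. Under vehicle miR-7a gave a log2 fold change of -0.64 (adjusted p = 0.441), from 5.76 to 14.2 CPM against 12.3 to 22.3 CPM in scramble, and these ranges overlap.

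With miR-29a Dnmt3b stood at 8.29, 11.9, 9.63 and 9.66 CPM under LPS, below every scramble library, and at 7.20, 14, 11.4 and 10.7 CPM under vehicle. Neither difference passed, with log2 fold changes of -0.47 (SE 0.15, 95% interval -0.81 to -0.14, adjusted p = 0.104) and -0.66 (SE 0.25, 95% interval -1.20 to -0.12, adjusted p = 0.374). With miR-146a the log2 fold changes were -0.11 (adjusted p = 0.786) under LPS and -0.33 (adjusted p = 0.37) under vehicle, and LPS in scramble cells gave -0.25 (adjusted p = 0.38). Between miR-29a and miR-7a Dnmt3b differed by -0.02 (adjusted p = 0.979) under vehicle and 0.19 (adjusted p = 0.624) under LPS, and between miR-29a and miR-146a by -0.33 (adjusted p = 0.405) and -0.36 (adjusted p = 0.278).

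Tet3, the eraser with the most miR-29a matches, fell with miR-29a under LPS. It had 90.1, 71.9, 74.3 and 70.6 CPM in LPS_scramble and 42.1, 44.6, 43.4 and 45.4 CPM in LPS_miR-29a. The 4 LPS_miR-29a libraries lay below every other library of the series, the next lowest of which had 62.6 CPM. The log2 fold change was -0.78 (SE 0.12, 95% interval -1.03 to -0.53, adjusted p = 0.00631), and the call held with each library left out, with adjusted p from 0.011 to 0.0236.

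Under vehicle Tet3 had 76.1, 65.6, 81.7 and 63.4 CPM in VEH_miR-29a and 122, 149, 80.4 and 103 CPM in VEH_scramble, where replicate 3 of each group crossed over, and the difference of -0.63 (SE 0.20, 95% interval -1.07 to -0.20, adjusted p = 0.314) missed the rule. Set against miR-146a, Tet3 was lower with miR-29a, with a log2 difference of -0.83 (SE 0.13, 95% interval -1.10 to -0.55, adjusted p = 0.0101) under vehicle and -1.16 (SE 0.12, 95% interval -1.41 to -0.90, adjusted p = 0.000205) under LPS. Against miR-7a it was lower under LPS, at -0.76 (SE 0.13, 95% interval -1.05 to -0.47, adjusted p = 0.011), and these 3 calls held without any 1 library. Under vehicle miR-29a and miR-7a differed by -0.38 (adjusted p = 0.286).

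With miR-146a under LPS Tet3 had 95.2, 98.3, 102 and 91.9 CPM, all above the scramble libraries, with a log2 fold change of 0.38 (SE 0.11, 95% interval 0.14 to 0.62, adjusted p = 0.0961) that passed with the replicate block (adjusted p = 0.0324). LPS in scramble cells gave -0.53 (SE 0.19, 95% interval -0.94 to -0.12, adjusted p = 0.0712), which passed with the block (adjusted p = 0.0392). The other differences of Tet3 were 0.20 (adjusted p = 0.529) for miR-146a under vehicle, -0.02 (adjusted p = 0.96) for miR-7a under LPS and -0.24 (adjusted p = 0.702) for miR-7a under vehicle.

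Tet2, the most abundant eraser, changed in 1 comparison. Against miR-146a under vehicle it was lower with miR-29a, at -0.62 (SE 0.14, 95% interval -0.93 to -0.31, adjusted p = 0.037), with 189, 162, 214 and 232 CPM against 251, 308, 334 and 325 CPM. The groups did not overlap, but the call was lost without any 1 library except replicate 4 of VEH_miR-29a, with adjusted p of up to 0.113. Under LPS Tet2 had 263, 259, 296 and 344 CPM in scramble and 205, 178, 257 and 198 CPM with miR-29a, and every miR-29a library lay below every scramble library. That log2 fold change, -0.48 (SE 0.14, 95% interval -0.79 to -0.16, adjusted p = 0.0809), missed the rule, and it passed with the replicate block (adjusted p = 0.0101).

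With miR-7a under LPS Tet2 had 190.3, 225, 206 and 274 CPM and gave -0.38 (SE 0.15, 95% interval -0.70 to -0.07, adjusted p = 0.197), which also passed with the block (adjusted p = 0.018). Its 3′ UTR held 0 miR-7a matches. For miR-29a against miR-146a under LPS the difference was -0.48 (SE 0.14, 95% interval -0.79 to -0.16, adjusted p = 0.05), at the limit of the rule, and it passed with the block (adjusted p = 0.00437). LPS in scramble cells gave 0.37 (SE 0.15, 95% interval 0.05 to 0.69, adjusted p = 0.105), with no overlap of the groups. miR-146a gave 0.42 (adjusted p = 0.117) under vehicle and -0.01 (adjusted p = 0.981) under LPS, and the difference between these effects was -0.45 (unadjusted p = 0.0265, adjusted p = 0.401). Against scramble under vehicle, miR-29a and miR-7a gave -0.20 (adjusted p = 0.7) and -0.04 (adjusted p = 0.939), and miR-29a against miR-7a gave -0.10 (adjusted p = 0.791) under vehicle and -0.10 (adjusted p = 0.819) under LPS.

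Tet1, the third eraser, held the second highest number of miR-29a matches but too few reads to compare. Its highest group mean was 0.306 ± 0.522 CPM in VEH_miR-146a, where replicate 2 alone had 1.08 CPM.

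Tdg, the glycosylase that removes oxidised methylcytosine, had the lowest group mean of each condition with miR-29a. Under vehicle it had 51.7, 30.6, 29.5 and 35.2 CPM in scramble and 27.3, 17.6, 22.3 and 19.95 CPM with miR-29a, without overlap. Under LPS it had 53, 46.5, 43.3 and 49.3 CPM in scramble and 41.8, 30.6, 34.3 and 30.4 CPM with miR-29a, again without overlap. The log2 fold changes of -0.75 (SE 0.22, 95% interval -1.23 to -0.27, adjusted p = 0.284) and -0.49 (SE 0.13, 95% interval -0.78 to -0.21, adjusted p = 0.0546) missed the rule, and both passed with the replicate block (adjusted p = 0.0464 and 0.0183).

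Direct comparison gave calls for Tdg in 3 of 4 cases. It was lower with miR-29a than with miR-7a, with a log2 difference of -1.04 (SE 0.23, 95% interval -1.53 to -0.54, adjusted p = 0.0444) under vehicle and -0.70 (SE 0.16, 95% interval -1.06 to -0.35, adjusted p = 0.0334) under LPS. It was also lower than with miR-146a under vehicle, at -0.81 (SE 0.16, 95% interval -1.17 to -0.46, adjusted p = 0.0285). Under LPS the difference from miR-146a was -0.36 (adjusted p = 0.146). In the vehicle comparison with miR-7a, 3 VEH_miR-7a libraries had the high structural RNA shares given above, and the calls of Tdg and Dnmt3a held with the structural RNA genes left out. The vehicle call against miR-7a was lost without a filter on low values (adjusted p = 0.101) and in limma-trend (0.12). It was also lost without any 1 library except replicate 4 of VEH_miR-7a or replicate 1 of VEH_miR-29a (adjusted p of up to 0.129). The LPS call against miR-7a was lost without any 1 library except replicate 1 of LPS_miR-7a (up to 0.106), and the call against miR-146a without any 1 except replicate 1 of VEH_miR-29a or replicate 4 of VEH_miR-146a (up to 0.0867).

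In replicate 1 Tdg was higher than in the other libraries of LPS_miR-7a (73.1, 51.5, 50.02 and 49.6 CPM). Against scramble, miR-7a gave 0.21 (adjusted p = 0.499) under LPS and 0.28 (adjusted p = 0.68) under vehicle, and miR-146a gave -0.14 (adjusted p = 0.592) and 0.06 (adjusted p = 0.88). LPS in scramble cells gave 0.40 (SE 0.19, 95% interval -0.0047 to 0.80, adjusted p = 0.154), which passed with the block (adjusted p = 0.0475). The lost decimal mark was restored in 25 of the 32 values of Tdg, more than for any other of the 8 genes, and the lowest posterior of such a reading was 0.941.

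The test of whether a mimic acted differently under LPS and under vehicle called 0 of the 7 genes for each mimic by limma voom and by limma-trend. Of all genes it called 0.0333% for miR-7a, 0.0164% for miR-29a and 0.0164% for miR-146a, which are 4, 2 and 2 genes. Leaving out 1 library gave 133 genes for miR-7a without replicate 1 of VEH_miR-7a and 2 to 8 without any other, 0 to 7 for miR-29a, and 107 for miR-146a without replicate 1 of VEH_scramble and 0 to 4 without any other. At an unadjusted p under 0.05 it found 0, 1 and 1 of the 7 genes, where 5.45%, 6.6% and 11.2% of all genes passed that limit. A mimic's call under LPS without one under vehicle is therefore not shown to be particular to LPS.

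The proteins that work with these enzymes were read from lists of partners. Of 10 partners of the writers 3 rose with LPS in scramble cells, where 9.62% of all genes did: Hells, a chromatin remodeller that opens DNA for methylation, by 1.38 (adjusted p = 0.00643), the DNA ligase Lig1 by 1.02 (adjusted p = 0.0079), and Dnmt3l, the cofactor of the Dnmt3 enzymes, by 0.74 (adjusted p = 0.0496). With miR-29a under LPS Hells rose by 0.57 (adjusted p = 0.0465), 1 of 9 tested beside 4.77% of all genes called in either direction, and with miR-146a under LPS it fell by 0.77 (adjusted p = 0.0439) on the log2 scale, 1 of 10 beside 1.49% of all genes called lower. In miR-29a against miR-146a under LPS Hells and Lig1 were higher with miR-29a, 2 of 9 beside 5.39% of all genes called higher, by 1.33 (adjusted p = 0.000963) and 0.77 (adjusted p = 0.0415). The median of this list was 0.19 with LPS, -0.25 with miR-29a under LPS and -0.37 with miR-146a under LPS.

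Of 13 genes of base excision repair 2 rose with LPS, near the 9.62% of all genes called higher there, the glycosylases Neil3 by 1.33 (adjusted p = 0.00175) and Mbd4 by 0.74 (adjusted p = 0.0498). Neil3 was lower with miR-146a under LPS at -0.91 (adjusted p = 0.0349), 1 of 13 beside 1.49% of all genes called lower. It was also the gene of the list called in miR-29a against miR-146a under LPS, at 1.04 (adjusted p = 0.0138), 1 of 13, near the 5.39% of all genes called higher. The remaining 12 genes were not called in either of these comparisons. Of the cofactors and partners of the Tet enzymes, 2 of 9 fell with LPS, where 8.37% of all genes were called lower, the mitochondrial isocitrate dehydrogenase Idh2 at -0.54 (adjusted p = 0.0277) and the Tet partner Cxxc5 at -0.75 (adjusted p = 0.0329). In miR-29a against miR-146a under LPS 2 of 9 were higher and 1 was lower, beside 5.39% and 6.61% of all genes. Among the higher was Idh3a, a subunit of another mitochondrial isocitrate dehydrogenase, at 0.78 (adjusted p = 0.00777), and the lower was Cxxc5, at -0.95 (adjusted p = 0.0296).

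The methyl donor cycle, which makes S-adenosylmethionine and clears its product, was read from 11 genes. With miR-146a under vehicle Shmt2 and Ahcy fell, at -1.02 (adjusted p = 0.0254) and -0.87 (adjusted p = 0.0465), 2 of 11 beside 2.38% of all genes called in either direction. Both calls were lost without replicate 3 of VEH_miR-146a, where 0 of all genes were called. LPS in scramble cells raised Ahcyl1 by 0.51 (adjusted p = 0.0431), 1 of 11, near the 9.62% of all genes called higher. Against miR-146a, miR-29a had higher Ahcy under vehicle, by 0.77 (adjusted p = 0.0396), 1 of 11 beside 3.33% of all genes called in either direction. Under LPS it had higher Shmt1 and Mat2a, by 0.87 (adjusted p = 0.0227) and 0.65 (adjusted p = 0.0441), 2 of 11 beside 5.39% called higher. Of the readers of methylated DNA, Zbtb4 was the 1 called gene. It rose with miR-146a under LPS by 0.56 (adjusted p = 0.0456), 1 of 6 tested beside 0.823% of all genes called higher. Under vehicle it was higher with miR-29a than with miR-7a by 0.97 (adjusted p = 0.0274), 1 of 7 beside 1.41% called in either direction. Under LPS it was lower with miR-29a than with miR-146a at -0.66 (adjusted p = 0.0156), 1 of 7 beside 6.61% called lower.

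Markers of the cells themselves also moved. In scramble cells the microglial genes Trem2, Tyrobp and Fcgr3 fell with LPS, at -1.37 (adjusted p = 0.000238), -1.10 (adjusted p = 0.0014) and -0.68 (adjusted p = 0.0236) on the log2 scale, and LPS raised Itgam by 0.54 (adjusted p = 0.0414), 4 of 9 tested beside 18% of all genes called in either direction. Beside the lower Dnmt3a and Tet3 with miR-29a under LPS, Fcgr3 and Tyrobp were lower too, at -0.92 (adjusted p = 0.00469) and -0.58 (adjusted p = 0.0445), 2 of 9 beside 2.66% of all genes called lower. In miR-29a against miR-146a under LPS 3 of 9 were lower (Fcgr3, Tyrobp and Itgam) beside 6.61% of all genes, and against miR-7a under LPS 1, Fcgr3, beside 2.44%. The summed level of the 11 markers was 2497 ± 324 CPM in LPS_scramble and 1884 ± 332 CPM in LPS_miR-29a (SD, n = 4). Their part in the values of the 8 genes was not tested. Summed markers of neurons reached at most 1.86 CPM, of endothelium 3.58 CPM and of oligodendrocytes 18 CPM, where Mbp fell with LPS, at -0.91 (adjusted p = 0.0349).

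Set beside the seed matches, the 2 genes called lower with miR-29a under LPS, Dnmt3a and Tet3, held 6 and 10 of them, and the genes with 0, Dnmt1 and Uhrf1, had the values closest to 0 among the 7. Tet2, Tdg and Dnmt3b, with 5, 3 and 2 matches, lay between at -0.48, -0.49 and -0.47. Under vehicle none was called by the rule. Dnmt3a with 6 matches had the lowest value there, at -0.83, and Uhrf1 with 0 had the value closest to 0, at 0.01. Between these the values did not follow the number of matches. Tet2 with 5 matches had -0.20 and Dnmt1 with 0 had -0.19, while Tdg with 3 had -0.75, Dnmt3b with 2 had -0.66 and Tet3 with 10 had -0.63. Over all genes tested with miR-29a under LPS, 89 of 2101 with a match were called lower (4.24%) and 179 of those without (2.02%), with median log2 fold changes of -0.046 and 0.013. With miR-7a under LPS 1.28% of genes with a match and 0.883% of those without were called lower, and with miR-146a under LPS 1.26% and 1.72%. For miR-7a, Dnmt3b with 2 matches was called lower under LPS while Dnmt3a with 2 matches and Uhrf1 with 1 were not. For miR-146a, Uhrf1 with 1 match was called lower, and Tet3 and Tdg with 1 match each were not.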

How the data were processed

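RNA was sequenced from 32 libraries of BV-2 cells, 4 in each of 8 groups. Per the study's methods, ribosomal RNA was removed before the total RNA kit was applied, and nf-core rnaseq assigned the reads to genes of GRCm38. The submitters' processing notes name limma and edgeR. The authors deposited 1 table of values per gene and library, described as counts, whose decimal marks are missing, so the deposited values are another quantity than counts as they stand.

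The lost marks were restored by weighing 0 to 3 lost decimals for each value from the share of whole values at its size, its last digits and the level of that gene elsewhere in its group, in its condition and in the whole table. Decimals were put back in 28.5% of the 590874 values above 0, in 93.1% of these cases 3 of them, and 1.38% of the values had a posterior under 0.9. Genes with such a value in the libraries compared left that comparison. The restoration was revised on digits and totals before any differential test was run here. No pair of libraries held identical values (0 pairs).

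Restored estimated counts were scaled by TMM factors, filtered on low values (a count of 10 or its CPM equivalent, a total of 15) and tested with limma voom (limma 3.58.1, R 4.3.3), for each pair of groups on its 8 libraries and for each interaction on 16, with Benjamini-Hochberg adjustment over all genes tested. A gene was called at an adjusted p under 0.05 and a log2 fold change beyond 0.3. TMM and the filter were rewritten for this purpose. Levels are CPM on the total times the TMM factor, which are not on a log scale, and log2 fold changes come from the fits. The depth of a library limits the precision of its levels, and the counting floor of 3 counts covers counting error only.

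On simulated data for miR-29a under LPS (14114 genes), 16.4% of genes changed 1.5-fold were recovered, 80.3% of those changed 2-fold and 100% of those changed 4-fold, and 0.0359% of unchanged genes were called. The interaction test (12960 genes) recovered 8.96%, 26.2% and 100%.

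The replicate numbers were taken to pair libraries where every same-numbered pair correlated over 0.1 in its deviations from the group means. This held for miR-29a under vehicle, the 3 mimics under LPS, LPS in scramble cells and miR-29a against miR-146a.

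The 8 genes, the lists of other genes and the tests were chosen with earlier results of these data known. Named are all 8 genes, up to 3 called genes of each list with the smallest adjusted p in a comparison (1 such result is not reported here), and the 3 genes that correlated best with Dnmt3a and with Uhrf1, on log2(CPM + 1) among genes with a mean of at least 1 CPM. Other size factors, no filter, limma-trend, a stricter posterior of 0.99, 1 fit over all groups, the replicate block and left-out libraries were tried as alternatives. 3′ UTRs come from GENCODE M21, which holds 45143 of the 45706 gene IDs, and mature microRNAs from RefSeq.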

Additional observations from a re-analysis of the deposited data

Results flagged for a closer look

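In 10 of 64 groups of 4 libraries, the gap between 1 library and the other 3, as a share of the range of the group, passed Dixon's 95% critical value. Chance alone flags about 1 in 20 groups. The values are given without an explanation.

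Dnmt1 in replicate 3 of VEH_miR-146a stood at 103.4 CPM, against 129 to 133 CPM in the other 3. Dnmt3a in replicate 4 of VEH_miR-7a, the shallowest library, had 450.1 CPM, against 347 to 352 CPM. Dnmt3b in replicate 2 of LPS_miR-146a had 16.3 CPM, against 11.2 to 11.99 CPM. Tet3 in replicate 2 of VEH_miR-7a had 62.58 CPM, against 102 to 105 CPM. Tdg in replicate 1 of LPS_miR-7a had 73.09 CPM, against 49.6 to 51.5 CPM. Uhrf1 in replicate 2 of LPS_miR-29a had 160.5 CPM, against 79 to 85.7 CPM.

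The remaining 4 concern Tet1, which was at 0 in most libraries, so that a few reads set 1 library apart. It had 0.4873 CPM in replicate 1 of VEH_scramble, 0.5156 CPM in replicate 1 of VEH_miR-29a and 0.1299 CPM in replicate 2 of LPS_miR-29a, where the other 3 were at 0, and 1.082 CPM in replicate 2 of VEH_miR-146a, where the others had up to 0.142 CPM.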

How the results depend on the processing

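Of 98 tested results of single genes 19 were called, of which 16 kept their call under every alternative other than the values as deposited and left-out libraries, and 9 kept it with each library left out. Median-of-ratios size factors, structural RNA genes left out and the adjusted p alone ended no call. Median-of-ratios size factors (adjusted p = 0.0436) and a posterior minimum of 0.99 (0.0435) added Tet2 in miR-29a against miR-146a under LPS. Of 64 group levels, 11 moved by more than 1 SD when CPM were scaled by library totals alone, and 0 of 24 counts of seed matches moved with other annotated 3′ UTRs. Without the replicate block versus with it, genes called went from 0 to 2 for miR-29a under vehicle, 1 to 2 for miR-7a under LPS, 2 to 4 for miR-29a under LPS, 2 to 4 for miR-146a under LPS and 2 to 4 for LPS in scramble cells, and the block ended no call. The share of all genes called rose as well, to 0.77%, 9.16%, 9.9%, 10.1% and 25.0% in the same order. In miR-29a against miR-146a under LPS it added Tet2, 3 to 4, beside 25.8% of all genes. The numbers were not taken to pair libraries in 4 comparisons of 2 groups, where the lowest correlation of same-numbered libraries was -0.111 for miR-7a under vehicle, 0.0686 for miR-146a under vehicle, and 0.0538 and 0.0676 for miR-29a against miR-7a under vehicle and LPS. There the block left the counts at 0, 0 and 2, and in the last it gave 4 instead of 3, with Dnmt1 added (-0.45, adjusted p = 0.0174), while the share of all genes called rose from 0.0545%, 2.38%, 1.41% and 3.84% to 3.23%, 7.64%, 9.6% and 9.44%.

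One fit over all 8 groups called 2 genes for miR-29a under vehicle (Dnmt3a, adjusted p = 0.00228, and Tet3, 0.0354) and 1 for miR-146a under vehicle (Tet2, 0.0419), beside 0.662% and 11.6% of all genes. It also added Tet2 for miR-29a under LPS (0.0363), Tet3 for LPS in scramble cells (0.00486) and Tet2 for miR-29a against miR-146a under LPS (0.0185), beside 5.04%, 21% and 16.5% of all genes. Without a filter on low values, 0 genes were called for miR-7a under LPS and 1 for miR-29a against miR-7a under vehicle. Limma-trend called 1 for miR-146a under LPS and 1 for miR-29a against miR-7a under vehicle. With a posterior minimum of 0.99, Dnmt3b was not tested for miR-7a under LPS and 0 genes were called. Tdg was then not tested in the comparisons with VEH_scramble, where its replicate 1 had a posterior of 0.941. The causes of these changes were not tested, except that the stricter posterior leaves fewer genes.

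For these 3 settings the sign turned for results that were not called. Without the filter the sign turned for Dnmt3a in miR-7a against scramble under vehicle (-0.054), Uhrf1 in miR-29a against scramble under vehicle (-0.0069), Dnmt3b in miR-29a against miR-7a under vehicle (0.047) and Dnmt3b in the miR-7a effect under LPS minus vehicle (0.0099). In the fit over all groups the sign turned for Uhrf1 in miR-29a against scramble under vehicle (-0.0037). In limma-trend the sign turned for Dnmt3b in miR-29a against miR-7a under vehicle (0.11), Dnmt1 in the miR-7a effect under LPS minus vehicle (0.030), Dnmt3b in the miR-7a effect under LPS minus vehicle (0.071) and Tdg in the miR-7a effect under LPS minus vehicle (0.040).

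With the values as deposited, before the decimal marks were restored, 0 of the 8 genes were called in each comparison and 41 log2 fold changes turned sign. For miR-7a against scramble under vehicle they were -2.50 for Dnmt1, -6.14 for Tdg and -6.32 for Uhrf1. For miR-29a against scramble under vehicle they were 3.08 for Dnmt1, 2.03 for Dnmt3b, 3.13 for Tet2 and -2.35 for Uhrf1. For miR-146a against scramble under vehicle they were 2.94 for Dnmt1, -0.98 for Dnmt3a and -0.031 for Tet3. For miR-7a against scramble under LPS they were -0.62 for Dnmt1, 1.31 for Dnmt3b, 0.24 for Tet3 and -1.30 for Uhrf1. For miR-29a against scramble under LPS they were 0.56 for Tet2, 0.67 for Tdg and 1.16 for Uhrf1. For miR-146a against scramble under LPS they were 3.84 for Dnmt3b, 1.05 for Tdg and 0.20 for Uhrf1. For miR-29a against miR-7a under vehicle they were 5.58 for Dnmt1, 7.82 for Dnmt3b, 5.06 for Tet2, 3.65 for Tdg and 4.19 for Uhrf1. For miR-29a against miR-146a under vehicle they were 3.25 for Dnmt3b. For miR-29a against miR-7a under LPS they were -1.84 for Dnmt3b, 2.28 for Tet2 and 2.48 for Uhrf1. For miR-29a against miR-146a under LPS they were 4.03 for Tet2. The miR-7a effect under LPS minus vehicle gave 1.76 for Dnmt1, 7.04 for Dnmt3b, 0.10 for Tet2, 6.998 for Tdg and 5.26 for Uhrf1. The miR-29a effect under LPS minus vehicle gave 3.13 for Dnmt3a, -2.42 for Dnmt3b, 2.52 for Tet3 and 3.78 for Uhrf1. The miR-146a effect under LPS minus vehicle gave 0.40 for Tdg and 6.63 for Uhrf1.

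Leaving out 1 library at a time, the number of genes called ranged from 0 to 1 for miR-7a against scramble under LPS, from 0 to 1 for miR-146a against scramble under LPS, from 1 to 3 for LPS against vehicle in scramble cells, from 0 to 2 for miR-29a against miR-7a under vehicle, from 2 to 3 for miR-29a against miR-146a under vehicle, from 2 to 3 for miR-29a against miR-7a under LPS and from 2 to 4 for miR-29a against miR-146a under LPS. The number of all genes called moved too, from 627 to between 163 and 700 for miR-29a under LPS, from 289 to between 32 and 275 for miR-146a under LPS, from 367 to between 75 and 371 for miR-7a under LPS and from 2188 to between 1121 and 2880 for LPS in scramble cells, with the lowest of the 3 mimic comparisons each time without replicate 4 of LPS_scramble. For miR-29a against miR-7a it moved from 155 to between 6 and 358 under vehicle and from 490 to between 206 and 700 under LPS, and for miR-29a against miR-146a it lay between 35 and 352 under vehicle, where 3.33% of 11763 genes were called with all libraries, and moved from 1494 to between 715 and 1573 under LPS. The sign turned for results that were not called: in miR-7a against scramble under vehicle Dnmt3a from -0.093 to 0.13 and Tet2 from -0.14 to 0.060, in miR-29a against scramble under vehicle Uhrf1 from -0.18 to 0.18, in miR-146a against scramble under vehicle Tdg from -0.036 to 0.23, in miR-7a against scramble under LPS Tet3 from -0.068 to 0.063, in miR-29a against scramble under LPS Uhrf1 from -0.27 to 0.13. It did so as well in miR-146a against scramble under LPS Tet2 from -0.064 to 0.071, in miR-29a against miR-7a under vehicle Dnmt3b from -0.15 to 0.26, in miR-29a against miR-146a under vehicle Dnmt1 from -0.040 to 0.12, in miR-29a against miR-7a under LPS Tet2 from -0.18 to 0.029, in the miR-7a effect under LPS minus vehicle Dnmt1 from -0.21 to 0.13, Dnmt3b from -0.19 to 0.21, Tdg from -0.28 to 0.17 and Uhrf1 from -0.41 to 0.076, in the miR-29a effect under LPS minus vehicle Dnmt1 from -0.21 to 0.025 and Uhrf1 from -0.27 to 0.14.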
